A study of Mus musculus with 2 samples.

Results

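The 41 genes described here drive or mark the cell division cycle and DNA replication. They were taken by symbol from the RPKM tables (reads scaled to gene length and to the library total) of 2 RNA sequencing libraries of mouse lung epithelial cells. All 41 were listed in at least 1 table, among 15113 genes in either. A gene missing from a table was counted as 0 RPKM. In each library 38 of the 41 genes had reads.

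The cells were CD45-negative, Sftpc-positive cells sorted from dissociated lung of C57BL/6 mice aged 6 to 8 weeks. Sftpc encodes a surfactant protein of alveolar type 2 (AT2) cells, and CD45, encoded by Ptprc, is the leukocyte surface protein. The tumour-bearing group had received 1000000 luciferase-labelled LLC cells, a mouse Lewis lung carcinoma line, under the skin of the back, as a model of spontaneous lung metastasis. The control group was wild-type mice without a tumour. Each group held 1 library, and the sources used here do not say whether animals were pooled within it. Replicate spread could thus not be measured, and p-values are not given. Bracketed ranges are exact 95% intervals of a ratio of recovered reads, for counting error alone. Pairs of values are given in the order control, then tumour-bearing, and "higher" and "lower" refer to the tumour-bearing library.

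The libraries corresponded to totals of 5335352 reads (control) and 5387114 reads (tumour-bearing). The 16 AT2 markers were all read in both and summed to 153445 and 102471 RPKM. Among the 12 leukocyte markers 7 were listed in neither table, Cd3e of T cells among them. The other 5 summed to 2.85 and 2.43 RPKM. Of these 5, Ptprc had 12 and 2 reads, a ratio of 0.165 (0.0179 to 0.741), and the intervals of the other 4 held 1. Sums were 1674 and 2691 RPKM for 10 alveolar type 1 markers, of which 6 were higher and 0 lower by 2-fold or more. Ager alone made up 1148 and 1673 RPKM of that sum. For 7 club and ciliated markers sums were 32277 and 36262 RPKM, and for the erythroid and platelet markers 16.8 and 29 RPKM. Scgb1a1 alone made up 30142 and 35116 RPKM of the club and ciliated sum, and of those 7 genes 1 was lower and 0 higher by 2-fold or more. The macrophage and neutrophil markers, whose sum is set by Lyz2 of AT2 cells, went both ways. Of the 8 tested, 3 were higher by 2-fold or more, among them Cd68 at 7.81 and 31.5 RPKM, and 2 were lower by 2-fold or more. Summed RPKM was 302 and 1071 for 12 fibroblast markers and 40.5 and 178 for 12 endothelial markers, 9 of 11 and 10 of 12 tested being higher by 2-fold or more. The part of these cells in the values below was not tested.

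A dividing cell passes from G1 through S phase, in which DNA is copied, to G2 and mitosis. D-type cyclins with Cdk4 or Cdk6, and then cyclin E with Cdk2, inactivate the retinoblastoma protein and release E2F factors, which switch on replication genes. Mcm2 to Mcm7 form the helicase ring that Cdc6 loads onto origins, and geminin (Gmnn) prevents a repeat loading. Late in the cycle cyclins A and B with Cdk1, and the Aurora, Plk1 and Bub1 kinases, run mitosis, until the anaphase-promoting complex with Cdc20 and Ube2c ends it. AT2 cells of a healthy adult lung divide rarely and are known as the stem cells that renew the alveolus after injury.

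Many of these genes are known to carry recognisable letters in their promoters: E2F sites, the CHR element read by the DREAM and MuvB complexes at late cell cycle genes, and CCAAT boxes bound by NF-Y. The RefSeq promoter table (GRCm38.p6, the assembly that mm10 denotes) held 32 of the 41 members in 34 promoters of 250 bases before to 50 after the start. Both strands were searched for E2F letters (TTTCCCGC, TTTGGCGC, TTTCGCGC or TTTGCCGC), CHR letters (TTTGAA) and CCAAT. None of these strings contains another. The next lines show the 120 bases just upstream of the start of 6 members, 5′ to 3′ on the gene's strand, with matches on either strand in capitals. They were chosen with their values known. Cdc20, Ube2c and Bub1 are mitotic genes with lower values, though the interval of Ube2c holds 1. Cdk1 had 12 and 14 reads. Of the replication genes shown, Mcm2 was lower too and the interval of Mcm6 holds 1. No link between these letters and the ratios is read from them.
Cdc20, chr4:118437344-118437463, minus strand: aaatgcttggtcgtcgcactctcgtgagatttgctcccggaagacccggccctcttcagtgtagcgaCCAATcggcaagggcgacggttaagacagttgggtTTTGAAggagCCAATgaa
Ube2c, chr2:164769809-164769928, plus strand: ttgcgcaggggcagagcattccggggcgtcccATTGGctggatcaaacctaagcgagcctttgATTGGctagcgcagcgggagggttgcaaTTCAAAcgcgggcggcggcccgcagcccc
Bub1, chr2:127831860-127831979, minus strand: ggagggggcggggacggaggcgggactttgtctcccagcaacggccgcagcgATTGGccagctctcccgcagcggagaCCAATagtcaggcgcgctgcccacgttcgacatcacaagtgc
Cdk1, chr10:69352913-69353032, minus strand: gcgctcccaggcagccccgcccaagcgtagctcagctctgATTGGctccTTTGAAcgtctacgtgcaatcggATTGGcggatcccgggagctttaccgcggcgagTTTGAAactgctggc
Mcm2, chr6:88898781-88898900, minus strand: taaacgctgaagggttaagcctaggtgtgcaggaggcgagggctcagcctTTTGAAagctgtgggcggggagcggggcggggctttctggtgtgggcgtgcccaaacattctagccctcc
Mcm6, chr1:128359706-128359825, minus strand: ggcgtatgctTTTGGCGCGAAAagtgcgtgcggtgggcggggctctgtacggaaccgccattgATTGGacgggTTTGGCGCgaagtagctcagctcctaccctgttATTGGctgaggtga

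The mitotic and replication promoters held different letters. CHR letters stood in 12 of 16 promoters of mitosis members (75%), in 1 of 11 of replication members and in 0 of 7 of the G1 group, against 17.9% of all 32851 promoters in the table. E2F letters stood in 5 of 11 replication promoters (45.5%) and in 1 of 16 mitosis promoters, against 2.26% of all. CCAAT stood in 15 of 16 mitosis and 9 of 11 replication promoters, against 37.4% of all. With only the 250 upstream bases, CHR letters were in 8 of 16 mitosis promoters and 16% of all. Cdc20, Ube2c and Cdk1 share a CHR match that begins at -18, -29 and -15 from the start, with a pair of CCAAT boxes in the printed bases, while those of Mcm6 hold 3 E2F matches, of which 2 overlap on opposite strands. A match is letters only, and which factors were bound was not measured.

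The members spanned a wide range of levels, and the medians differed by role. RPKM is scaled per length, so levels can be set side by side between genes. The 9 G1 and restriction point genes had median levels of 10 and 8.09 RPKM. The 12 replication genes had medians of 4.77 and 3.32 RPKM. The 20 mitosis genes had medians of 0.861 and 0.536 RPKM, below the medians over all genes of 5.48 and 5.73 RPKM. Stmn1, Ccnd1 and Pcna were the most abundant members in the control library, at percentiles 98.1, 94.4 and 94.3 of all genes. Mki67, the proliferation antigen Ki-67, stood at percentiles 16 and 20.6.

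**Figure D1:**
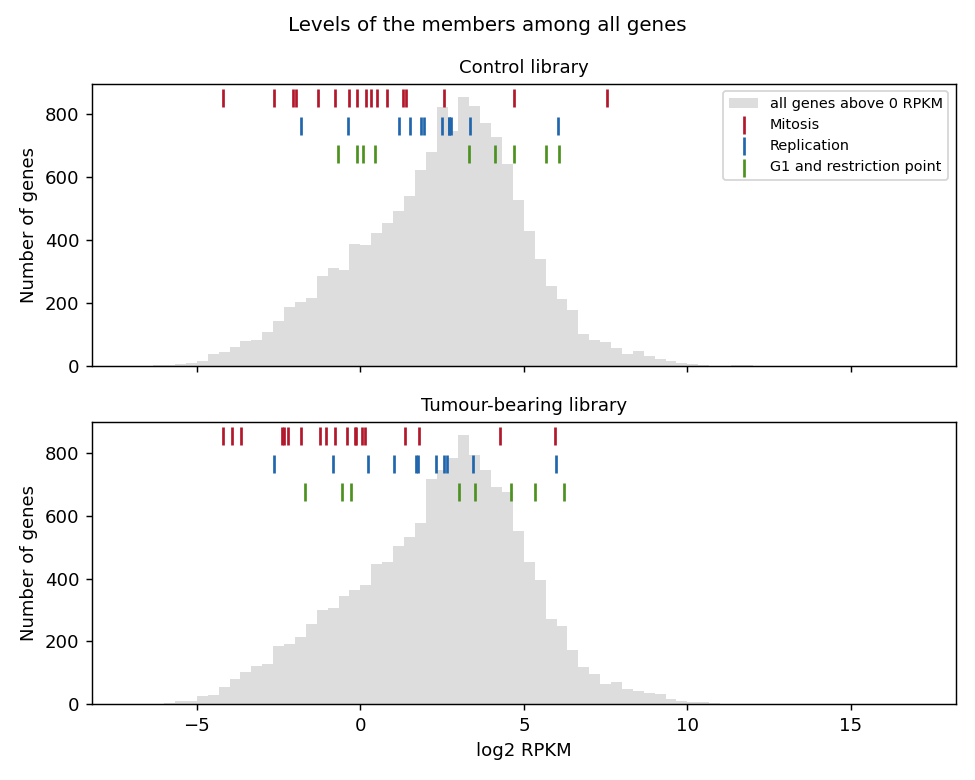
Histograms of log2 RPKM over all genes above 0 in the control (top) and tumour-bearing library (bottom), with 1 tick for each member above 0, in a row per role. Most mitosis members (red) lie left of the bulk of genes in both panels, with Stmn1 and Hmgb2 the ones far to the right, while Ccnd1, Cdk4 and Ccnd3 of the G1 group (green) and Pcna of the replication group (blue) lie right of it.

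The comparison asks what a distant tumour changes in lung epithelium. Over all 41 members, with no filter, the counting interval of the read ratio lay wholly below 1 for 14, wholly above 1 for 5 and held 1 for 22. Over all 15000 genes with recovered reads it lay below 1 for 3583, above 1 for 4438 and held 1 for 6979. By role, 6 of 20 mitosis, 5 of 12 replication and 3 of 9 G1 genes lay below 1, and 3, 1 and 1 above. Of the 27 members that reached 1 RPKM in either library, 21 had a log2 ratio below 0 and 6 above 0, on the scale log2((tumour-bearing RPKM + 1)/(control RPKM + 1)). Their median was -0.33, beside 0.06 over all 12288 genes that passed this filter. On the same scale 5 of the 27 (18.5%) were lower by 2-fold or more, beside 6.53% of all tested genes, and 1 (3.7%) was higher by 2-fold or more, beside 9.38%. Of the 27, 7 passed the filter in the control library only and 1 in the tumour-bearing library only, so part of these counts follows from the filter. Bub1, Aurka, Ube2c and Gmnn, all but Stmn1 of the 5 lower members, passed through the control only, and Cenpa through the tumour-bearing library only. Among the 19 members that reached 1 RPKM in both, 1 (Stmn1) was past 2-fold lower, beside 4.13% of such genes, and 0 were past 2-fold higher, beside 5.92%.

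The other 14 members stayed under 1 RPKM in both libraries and can be read only by their reads. By the counting interval of the read ratio, 12 of the 27 tested members (44.4%) lay wholly below 1, beside 26.5% of all tested genes. Wholly above 1 were 3 (11.1%), beside 33.1%. Intervals apart from 1 were thus frequent among all genes. Of the 12, Bub1, Ccna2, Aurka and Gmnn passed the filter through the control only, and of the 3, Cenpa through the tumour-bearing library only. Part of these counts thus follows from the filter too. In a bulk sample, differences in the share of cells in cycle, in RNA per cell and in the mixture of cells cannot be told apart.

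**Figure D2:**
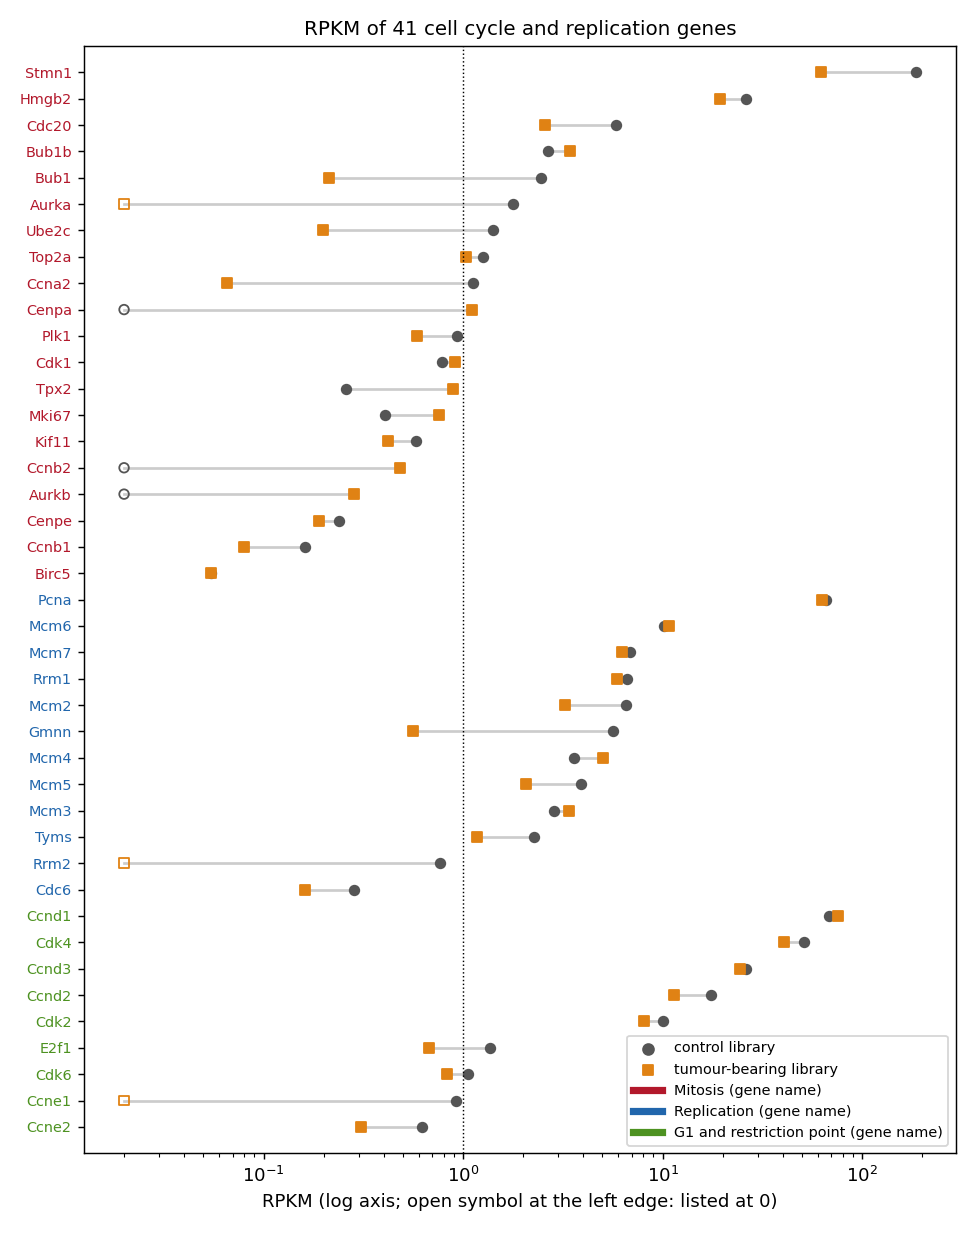
RPKM of each of the 41 members on a log axis in the control library (grey circles) and the tumour-bearing library (orange squares), sorted by level within each role, with a dotted line at 1 RPKM and open symbols at the left edge for genes listed at 0. The long lines to the left for Bub1, Aurka, Ube2c, Ccna2, Gmnn, Rrm2 and Ccne1 mark lower values in the tumour-bearing library. Those of Cenpa, Ccnb2 and Aurkb run the other way, and the symbols of Pcna, Mcm6 and Ccnd1 nearly coincide.

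Among the mitosis genes, Bub1, Ccna2 and Aurka were picked because their reads were few in the tumour-bearing library. Bub1 (GeneID 12235, chromosome 2, 127800197 to 127831859 on mm10), a kinase of the spindle checkpoint, was at 2.46 and 0.214 RPKM. These were 57 and 5 reads, an 11.5-fold lower value with an interval of 4.65 to 36.8. Ccna2 (GeneID 12428, chromosome 3, 36564865 to 36573038), the cyclin of S phase and G2, had 17 and 1 reads, at 1.13 and 0.0657 RPKM, 17.2-fold lower (2.69 to 717). Its log2 ratio of -0.997 fell just short of the 2-fold rule because of the added 1 RPKM. Aurka (GeneID 20878, chromosome 2, 172356190 to 172370886), the kinase of spindle poles, had 18 and 0 reads, at 1.77 and 0 RPKM. Against a floor of 3 reads taken as exact it was at least 6.06-fold lower, and with the counting error of both libraries the interval allows 4.44-fold. All 3 genes reached 1 RPKM in the control only, and their low values in the tumour-bearing library follow from how they were picked. The other kinase and cyclin genes of the group, given below, had intervals that hold 1.

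Among genes of the mitotic exit machinery, Cdc20 had an interval below 1 and Ube2c did not. Cdc20 (GeneID 107995, chromosome 4, 118432901 to 118437343), the activator of the anaphase-promoting complex, was at 5.85 and 2.59 RPKM, from 56 and 25 reads, 2.26-fold lower (1.39 to 3.78). In the GENCODE M21 annotation an exon of Cdc20 overlaps, by 53 bases, an exon of Elovl1 on the opposite strand. Elovl1 was far more abundant, at 1002 and 480 RPKM, and the sources used here do not state whether counting used strand. Reads that fall within the overlap cannot be assigned to either gene with certainty. Ube2c, the ubiquitin-conjugating enzyme of that complex, had 7 and 1 reads, at 1.41 and 0.199 RPKM. It was 7.07-fold lower with an interval of 0.908 to 319, which holds 1.

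A different set of mitosis genes had more reads in the tumour-bearing library. Mki67 had 22 and 41 reads, at 0.408 and 0.754 RPKM, a 1.85-fold higher value (1.07 to 3.25). Tpx2, which recruits Aurora A to the spindle, had 6 and 21 reads, at 0.258 and 0.893 RPKM, 3.47-fold higher (1.35 to 10.5). Cenpa, the histone H3 variant of centromeres, had 0 and 8 reads and reached 1.11 RPKM, at least 2.64-fold higher against the floor, with a counting interval that allows 1.69-fold. Tpx2 thus stood opposite to Aurka, the kinase it binds, at these read numbers.

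The remaining low mitosis genes had intervals that hold 1. Top2a, the topoisomerase that untangles sister DNA, had 35 and 29 reads, Bub1b, the checkpoint partner of Bub1, 52 and 68, and Cdk1 12 and 14. Kif11, the motor that separates spindle poles, had 15 and 11 reads, Plk1 11 and 7, and Cenpe, a kinetochore motor, 10 and 8. Birc5 (survivin) had 1 and 1 reads and Ccnb1 2 and 1, while Ccnb2 had 0 and 4 and Aurkb, the kinase of the chromosomal passenger complex, 0 and 3. At this depth differences of these 10 genes were not detectable, which does not show that their levels were equal.

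**Figure D3:**
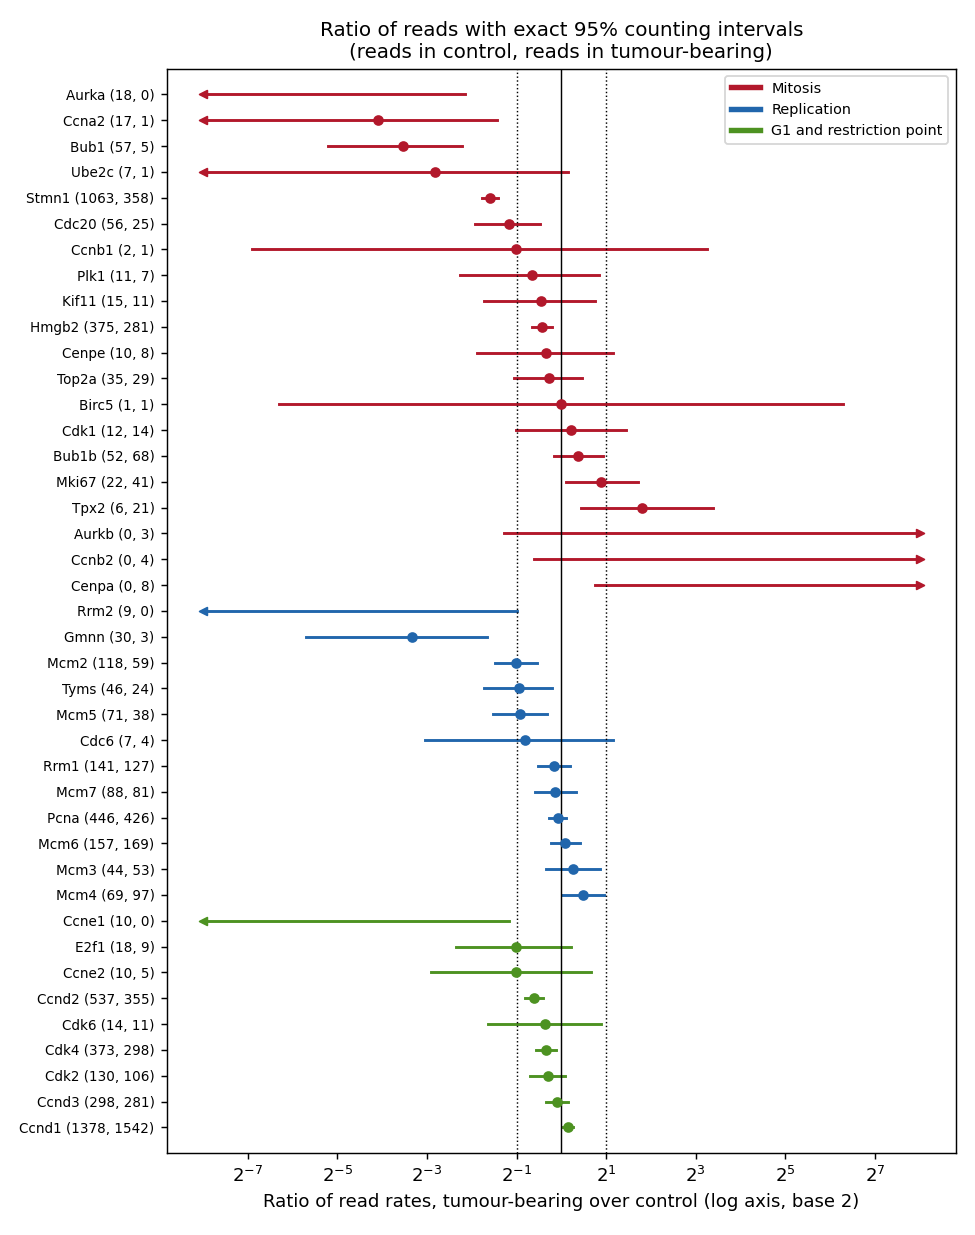
Ratio of the read rate in the tumour-bearing library to that in the control for each member, on a log axis of base 2, with exact 95% counting intervals and the reads of control and tumour-bearing library in parentheses. Dotted lines mark 2-fold, arrows mark intervals that run off the axis, and genes with 0 reads in 1 library have no point. Bub1, Ccna2, Aurka, Gmnn, Ccne1 and Stmn1 lie left of the lower 2-fold line with their whole interval, Cdc20 and Mcm2 straddle it, and no gene lies wholly right of the upper line.

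Stmn1 and Hmgb2 are the abundant members of the mitosis group and are not specific to it. Stmn1 (GeneID 16765, chromosome 4, 134468320 to 134473843) encodes stathmin, which destabilises microtubules and is regulated in mitosis. It was at 186 and 62.1 RPKM, from 1063 and 358 reads, 3-fold lower (2.66 to 3.39). This was the difference with the most reads behind it among the members past 2-fold, with a log2 ratio of -1.57. Hmgb2, a chromatin protein high in dividing cells, was at 26.1 and 19.4 RPKM, from 375 and 281 reads, 1.35-fold lower (1.15 to 1.58). Stmn1 and Hmgb2 together held 1438 of the group's 1759 reads in the control and 639 of 887 in the tumour-bearing library.

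Without Stmn1 and Hmgb2, the 18 other mitosis genes together had 321 and 248 reads. This was a 1.31-fold lower rate (1.1 to 1.55), and Bub1 carried most of the gap. Leaving out Bub1 too, a choice made after its values were seen, the other 17 had 264 and 243 reads, a ratio of 0.912 (0.763 to 1.09). The 18 genes summed to 20 and 13.3 RPKM. The interval of the sum without Bub1 thus held 1, while single genes lay far apart in both directions.

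Of the 12 replication genes, 5 had intervals wholly below 1, 1 wholly above 1 and 6 that hold 1. Pcna, the sliding clamp of DNA polymerases, was at 66.3 and 62.8 RPKM, from 446 and 426 reads, a ratio of 0.946 (0.826 to 1.08). Rrm1, the large subunit of ribonucleotide reductase, was at 6.61 and 5.9 RPKM, from 141 and 127 reads (ratio 0.892, 0.696 to 1.14). Its partner Rrm2, the subunit whose level follows S phase, had 9 and 0 reads, at 0.767 and 0 RPKM. Against the floor it was at least 3.03-fold lower, and its counting interval allows 1.99-fold. Tyms, thymidylate synthase, was at 2.26 and 1.17 RPKM, from 46 and 24 reads, 1.94-fold lower (1.16 to 3.31). The enzymes of nucleotide supply were thus unequal, with Rrm1 near 1 and Rrm2 and Tyms below.

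The 6 helicase genes Mcm2 to Mcm7, which form 1 ring, had unequal ratios. Mcm2 was at 6.54 and 3.24 RPKM, from 118 and 59 reads, 2.02-fold lower (1.47 to 2.81). Mcm5 was at 3.89 and 2.06 RPKM, from 71 and 38 reads, 1.89-fold lower (1.25 to 2.88). Mcm4 was at 3.6 and 5.02 RPKM, from 69 and 97 reads, 1.39-fold higher (1.01 to 1.92). So 2 of the 6 lay below and 1 above, and none passed the 2-fold rule on the RPKM + 1 scale.

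The other helicase genes had intervals that hold 1. Mcm6 was at 10.1 and 10.8 RPKM, from 157 and 169 reads, and Mcm7 at 6.88 and 6.28 RPKM, from 88 and 81 reads. Mcm3 was at 2.86 and 3.41 RPKM, from 44 and 53 reads. Exons of Mcm7 overlap those of Ap4m1 and Cops6 on the opposite strand, so its reads are uncertain. Mcm6 was the highest of the 6 in both libraries, 3.55 times the lowest (Mcm3) in the control and 5.25 times the lowest (Mcm5) in the tumour-bearing library. Summed over the 6 genes there were 547 and 497 reads, a ratio of 0.9 (0.795 to 1.02).

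Gmnn had the lowest log2 ratio of all members, at -2.09. The gene (GeneID 57441, chromosome 13, 24751845 to 24761937) encodes geminin, the inhibitor that is present from S phase to mitosis and keeps origins from being licensed again. It was at 5.65 and 0.56 RPKM, from 30 and 3 reads, 10.1-fold lower (3.14 to 51.7). Cdc6, the loader of the helicase, had 7 and 4 reads, at 0.285 and 0.161 RPKM, with an interval of the ratio from 0.121 to 2.23.

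The 7 G1 and restriction point genes that passed the filter lay within 2-fold on the RPKM + 1 scale. Ccnd1, cyclin D1, was the most abundant of the G1 group, at 68 and 75.4 RPKM, from 1378 and 1542 reads, 1.11-fold higher (1.03 to 1.19). Ccnd2 was at 17.4 and 11.4 RPKM, from 537 and 355 reads, 1.53-fold lower (1.33 to 1.75). Ccnd3 was at 26.2 and 24.5 RPKM, from 298 and 281 reads (ratio 0.934, 0.791 to 1.1). The order Ccnd1, Ccnd3, Ccnd2 was the same in both, and Ccnd1 stood at 3.9 times the level of Ccnd2 in the control and 6.6 times in the tumour-bearing library. Summed D-type cyclin reads were 2213 and 2178, a ratio of 0.975 (0.918 to 1.03).

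The kinases of G1 were unequal in level but close between libraries. Cdk4 was at 51.2 and 40.5 RPKM, from 373 and 298 reads, 1.26-fold lower (1.08 to 1.48), and its exons overlap those of Tspan31 on the opposite strand, at 42.8 and 55.5 RPKM. Cdk6, its close relative, was at 1.06 and 0.827 RPKM, from 14 and 11 reads. Cdk4 stood at 48.2 and 49 times the level of Cdk6. Cdk2, the partner of cyclin E, was at 10 and 8.09 RPKM, from 130 and 106 reads (ratio 0.808, 0.619 to 1.05).

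The cyclin E and E2F genes at the end of G1 were low. Ccne1 had 10 and 0 reads, at 0.927 and 0 RPKM, at least 3.37-fold lower against the floor, with a counting interval that allows 2.26-fold. Ccne2 had 10 and 5 reads, at 0.62 and 0.307 RPKM, and E2f1 18 and 9 reads, at 1.37 and 0.679 RPKM. The intervals of Ccne2 (0.133 to 1.59) and E2f1 (0.196 to 1.16) hold 1. Besides Cdc20, Mcm7 and Cdk4, exons of Ccna2, Ube2c, Ccnd1, Ccnd3, Ccne2 and Cdk2 overlap those of a protein-coding gene on the opposite strand, by 34 bases (Cdk2 and Pmel) to 818 bases (Ccnd1 and LTO1), and exons of Plk1, Ccnd2 and Cdk6 those of unnamed or antisense transcripts, so their reads are uncertain too. The abundant D-type cyclins and Cdk4 stood beside cyclin E genes at under 1 RPKM in both libraries.

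Members listed at 0 in 1 table were 6 in all. Aurka, Rrm2 and Ccne1 were listed at 0 in the tumour-bearing library and Ccnb2, Aurkb and Cenpa in the control library. Over all genes 5.49% were listed in the control table only and 7.81% in the tumour-bearing table only, so 3 of 41 in each direction is near the background.

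Other genes of the cycle, from lists that do not hold the members, were read the same way. Of 63 other mitosis genes 59 were listed and 32 tested, with a median log2 ratio of -0.46. Of these 32, 7 (21.9%) were past 2-fold lower, beside 6.53% of all tested genes, and 1 (3.1%) past 2-fold higher, beside 9.38%. Tubb5, a beta-tubulin, was at 60.9 and 20.4 RPKM, from 860 and 290 reads, 2.99-fold lower (2.62 to 3.43), a ratio like that of Stmn1. Pttg1 (securin), which holds back sister separation, had 48 and 13 reads, 3.73-fold lower (1.99 to 7.5), and Incenp, of the passenger complex, 92 and 34, 2.73-fold lower (1.83 to 4.18). Lmnb1, lamin B1, was at 5.68 and 2.59 RPKM. Of the 32 tested, 9 passed the filter through the control only and 4 through the tumour-bearing library only. Among the 19 that reached 1 RPKM in both libraries 3 were past 2-fold lower, beside 4.13% of all such genes. Past 2-fold higher were 0 of them, beside 5.92%. Their median was -0.09, and over all 59 with no filter it was -0.07. Values of the mitosis members depended on the filter too. Of these, 5 reached 1 RPKM in both, with 1 past 2-fold lower and a median of -0.41, in place of 4 of 10 and -0.97. With no filter the median over all 20 mitosis members was -0.13.

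Of 52 other replication genes 49 were listed and 44 tested, with 4 (9.09%) past 2-fold lower, 3 (6.82%) past 2-fold higher and a median of -0.18. Rpa3, a subunit of the single-strand binding protein, had 10 and 44 reads, 4.36-fold higher (2.16 to 9.71). Dut, which clears dUTP, had 69 and 20 reads, 3.48-fold lower (2.09 to 6.05). Rfc3, of the clamp loader, had 56 and 19 reads, 2.98-fold lower (1.74 to 5.3), and Lig1, the ligase of lagging strands, 106 and 40, 2.68-fold lower (1.84 to 3.95). Both shares are near those of all genes, and the list moved in both directions.

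Among 7 genes of CDK inhibitors, 1 of 6 tested was past 2-fold higher and 0 past 2-fold lower, and the median log2 ratio was -0.38. Cdkn2b, which encodes p15 and blocks Cdk4 and Cdk6, was at 4.71 and 36.4 RPKM, from 35 and 273 reads, 7.73-fold higher (5.42 to 11.3). Cdkn1a, which encodes p21, was the most abundant inhibitor, at 95.2 and 137 RPKM, from 983 and 1434 reads, 1.44-fold higher (1.33 to 1.57). Cdkn1b (p27) was at 26.7 and 22.2 RPKM, Cdkn1c (p57) at 23.4 and 14.8 RPKM, and Cdkn2d (p19) at 6.49 and 4.24 RPKM. Cdkn2c (p18) had 23 and 10 reads, 2.32-fold lower (1.06 to 5.47), and Cdkn2a 0 and 3 reads. The list's sum of 160 and 217 RPKM ran opposite to its median.

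Genes of the Rb, E2F and DREAM list were mostly close, with 1 of 14 tested past 2-fold lower and 0 past 2-fold higher, and a median log2 ratio of 0.02. E2f5, a repressive E2F, was at 9.89 and 3.37 RPKM, from 93 and 32 reads, 2.93-fold lower (1.94 to 4.53). Tfdp2, an E2F partner, was at 6.83 and 13 RPKM, 1.9-fold higher (1.64 to 2.21), and Rb1, the retinoblastoma gene, at 6.42 and 9.6 RPKM, 1.49-fold higher (1.22 to 1.84). The related pocket protein genes Rbl1 and Rbl2 had ratios of 1.24 (0.898 to 1.71) and 1.23 (1.05 to 1.45). E2f2, at 9.04 and 8.14 RPKM, and E2f4, at 14.4 and 15.8 RPKM, had intervals that hold 1, and E2f8 had 5 and 0 reads.

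The ubiquitin ligase genes and the remaining cyclins and kinases had medians near that of all genes. Of 20 tested genes of the APC/C and SCF ubiquitin ligases, 1 (5%) was past 2-fold higher, 0 past 2-fold lower and the median log2 ratio was -0.0026. The exception was Anapc15, with 11 and 32 reads, 2.88-fold higher (1.42 to 6.34). Of 25 other cyclins and CDKs, 2 (8%) were past 2-fold lower and 0 past 2-fold higher, and the median log2 ratio was 0.06. Ccnl1, a cyclin of RNA splicing, was at 61.4 and 27.6 RPKM, 2.23-fold lower (1.95 to 2.55), and Cdk14 at 13.2 and 6.05 RPKM, 2.19-fold lower (1.81 to 2.66).

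**Figure D4:**
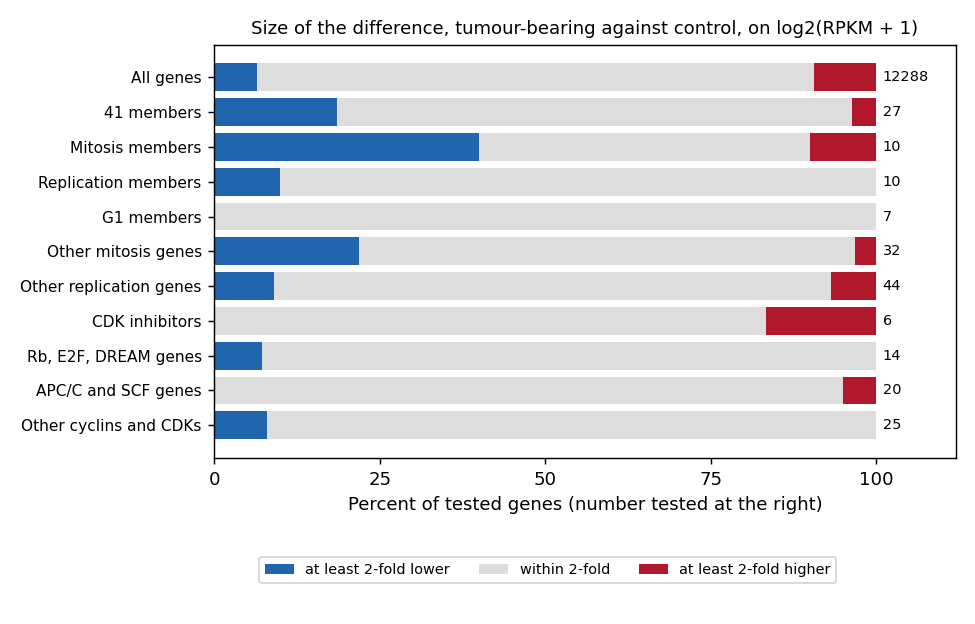
Percent of tested genes at least 2-fold lower (blue), within 2-fold (grey) and at least 2-fold higher (red) in the tumour-bearing library, for all genes, the members, their 3 role groups and the other cell cycle lists, with the number of tested genes at the right. The blue share is 40% for the mitosis members and 21.9% for the other mitosis genes, beside 6.53% for all genes, and 0% for the G1 members, but 3 of the 4 lower mitosis members passed the filter through the control only, so no contrast is read from these shares.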

How the data were processed

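Poly(A)-selected RNA of sorted lung cells was sequenced in 2 libraries, 1 per group. The authors deposited 1 table of RPKM per library, per the file headers. Per the submitters' processing notes, Trimmomatic and mm10 were used, without versions, and for aligner, counter, annotation and strand setting the sources used here give nothing. RPKM depends on the library total, of which a few surfactant genes take much: Sftpc made up 18.6% (control) and 11.2% (tumour-bearing) of summed RPKM.

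Read numbers were recovered from the RPKM steps. The last 60 rows of each table gave whole gene lengths with 1 read each at totals of 5335352 and 5387114 reads, which are estimates and not values stated by the authors. Multiplying both a total and all its reads by 2 gives the same RPKM, so printed reads are the smallest whole numbers that fit, and had both mates of a pair been counted they would stand for pairs. Reads were recovered for 15000 of 15113 genes and all 41 members, using the falling order of reads down each table. On simulated data, 99.9% of recovered reads were correct (14758 genes). The simulation was built from the recovered lengths and totals, so it does not test the recovery against outside data. Of the lengths implied by the recovery, 12% over the 15000 genes and 6 of 41 for the members equalled a GENCODE M21 transcript length. In the simulation the 2-fold rule found 89.8% of tested genes lowered 3-fold. The lowered genes were drawn only from genes above a read minimum that many members did not reach, so this rate does not apply to those members. Without molecular identifiers, intervals (Clopper-Pearson, conditional on both libraries' reads) and the floor of 3 reads cover counting error only.

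The measure was log2(RPKM + 1), with a pseudocount of 1 RPKM, for the 12288 genes that reached 1 RPKM in either library. Since it compresses the folds of low genes, printed folds are ratios of RPKM without the pseudocount. Members and lists were chosen with earlier results of these data known. All members could be named; of the other cell cycle lists the CDK inhibitor and Rb lists in full and up to 4 genes per list of the largest absolute log2 ratio among those reaching 5 RPKM. Coordinates are from RefSeq on GRCm38, overlaps from GENCODE M21. Alternatives were pseudocounts of 0.1 and 5, other filters, 4 scalings, recovered reads, thresholds of 1.5-fold and 4-fold and the counting interval. Python 3.11.15, scipy 1.17.1 and matplotlib 3.10.9 were used.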

Additional observations from a re-analysis of the deposited data

How the results depend on the processing

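The median log2 ratio of the members stayed below 0 under each of the 10 alternatives tried for it, from -0.40 with upper-quartile scaling to -0.15 with no filter and with a filter at 1 RPKM in both libraries, the last added after the data were examined. The 5 members at least 2-fold lower became 1 with a pseudocount of 5, 1 with a 4-fold threshold, 1 with 1 RPKM required in both libraries, 2 with a filter at 5 RPKM, 8 on recovered reads, 10 with a 1.5-fold threshold and 12 by the counting interval. Over all tested genes the lower share was, in the same order, 1.55%, 0.61%, 4.13%, 4.85%, 10.5%, 16.1% and 26.5%. In the main setting it was 6.53%. The 1 higher member became 0 with a pseudocount of 5, a 4-fold threshold, a filter at 5 RPKM or 1 RPKM in both libraries, and 3 by the counting interval. For the higher direction the share of all tested genes was 3.01%, 1.66%, 7.95%, 5.92% and 33.1% in that order, beside 9.38% in the main setting. Members read in the tumour-bearing library were 38, and 20 at 1 RPKM or more. The erythroid and platelet median of 1.09 over 5 genes reversed to -0.0812 over the 2 genes at 1 RPKM in both libraries, where fewer genes are tested. These counts therefore depend on how low values are treated. Depth limits the mitosis members, of which 10 of 20 stayed under 1 RPKM in both libraries. No paired analysis was possible because each group holds 1 library.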
